A study of Homo sapiens with 9 samples.

Results

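Cells of the human T cell leukaemia line Jurkat (clone E6-1) were profiled by FAIRE-seq, which recovers DNA free of nucleosomes, in a model of transcriptional memory. The regions described here were selected on peak calls. Each was called as a peak in the list labelled SW DMSO and in none of the other 3 peak lists used. They came from joining overlapping or touching peaks of the 4 lists on the autosomes, X and Y, and number 1759 of 40703 merged regions, or 4.32%. By the labels, the SW DMSO list comes from DMSO-treated cells that were stimulated for 4 h with PMA and ionomycin (the protocol text names a calcium ionophore), then washed and rested for 1 day. The NS DMSO list comes from non-stimulated cells given DMSO. The NS rottlerin and SW rottlerin lists come from cells given 15 μM rottlerin, a PKC inhibitor, for 1 h before no stimulus or before the same stimulus and withdrawal. The study's methods describe peak calling on DMSO samples, whereas the labels give rottlerin for 2 of the 4 lists. The merged total over every contig, and the number of regions dropped, equal those that the methods give for the pooled DMSO samples. The names are therefore used for lists and not for cell states.

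Each list holds 1 library, so there is no replicate error and no p-value, and depth is unknown from peak lists. The lists held 18977 (NS DMSO), 20132 (SW DMSO), 23835 (NS rottlerin) and 30409 (SW rottlerin) peaks. Shares carry 95% Wilson intervals and differences 95% Newcombe intervals, in brackets, which cover counting error over regions only. In the SW DMSO list, 4 of 9 T cell markers had a peak within 1 kb of a transcription start site (TSS), namely CD3D, CD3E, CD247 and CD28. None of 6 B cell and none of 6 myeloid markers had one, and 1 of 6 erythroid markers did (EPOR).

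T cell activation through protein kinase C and calcium brings several families of DNA-binding factors into play. AP1 factors are pairs of JUN, FOS, ATF and BATF proteins that bind a short palindromic site and act with NFAT proteins at many inducible enhancers. ETS, RUNX, GATA and E-box factors maintain T cell identity. Factors of the ATF4 and C/EBP families bind a different, composite site near genes of amino acid supply and of endoplasmic reticulum stress.

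Peaks that hold the AP1 site, TGANTCA on either strand with N as any base, are shown first because this site was more frequent in the regions than in each other single-list group. They are printed as the plus strand of Hg19 with AP1 sites in capitals, and come from the members of highest fold, from those at a TSS and from those near T cell genes. Each is named by the gene with the nearest coding TSS or by the list gene within 50 kb. RUNX1 (chr21:36552503-36552778) encodes a haematopoietic transcription factor, and the region is intronic, 131 kb before the TSS. CNTN3 (chr3:74838351-74838572), a neural adhesion gene, has an intergenic region, and FBXW8 (chr12:117398045-117398246), a ubiquitin ligase subunit, an intronic one. STX11 (chr6:144472397-144472602), a syntaxin of cytotoxic granule release, has an intronic region 0.341 kb before the TSS. MYB (chr6:135492165-135492329), a haematopoietic transcription factor, has an intergenic region 10.2 kb before the TSS. BATF3 (chr1:212845117-212845329) and JUNB (chr19:12948096-12948265) encode AP1 proteins. Their regions lie 28 kb and 45.9 kb after the TSS, with TSSs of LINC02773 and MAST1 the nearest. They were placed as upstream and intronic over the transcripts of all genes, and not relative to BATF3 and JUNB. BCL2L11 (chr2:111858471-111858643) encodes a pro-apoptotic protein, and the region lies in an exon, with a TSS of ACOXL-AS1 the nearest.
RUNX1: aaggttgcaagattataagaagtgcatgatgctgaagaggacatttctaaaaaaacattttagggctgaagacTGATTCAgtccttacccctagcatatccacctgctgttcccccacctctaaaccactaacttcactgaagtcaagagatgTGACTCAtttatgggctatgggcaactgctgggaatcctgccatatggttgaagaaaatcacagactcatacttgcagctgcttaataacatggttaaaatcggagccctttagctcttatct
CNTN3: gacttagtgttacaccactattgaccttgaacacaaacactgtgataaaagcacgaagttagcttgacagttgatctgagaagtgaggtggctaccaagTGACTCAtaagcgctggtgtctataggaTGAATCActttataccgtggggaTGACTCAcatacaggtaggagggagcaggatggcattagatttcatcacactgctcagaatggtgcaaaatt
FBXW8: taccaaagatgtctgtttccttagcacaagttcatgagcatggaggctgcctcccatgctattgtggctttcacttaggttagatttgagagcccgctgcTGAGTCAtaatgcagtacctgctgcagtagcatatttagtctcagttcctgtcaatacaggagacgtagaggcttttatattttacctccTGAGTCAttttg
STX11: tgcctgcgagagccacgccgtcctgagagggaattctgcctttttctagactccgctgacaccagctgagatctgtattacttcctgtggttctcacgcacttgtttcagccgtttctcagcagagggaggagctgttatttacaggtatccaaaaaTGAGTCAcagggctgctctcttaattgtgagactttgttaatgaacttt
MYB: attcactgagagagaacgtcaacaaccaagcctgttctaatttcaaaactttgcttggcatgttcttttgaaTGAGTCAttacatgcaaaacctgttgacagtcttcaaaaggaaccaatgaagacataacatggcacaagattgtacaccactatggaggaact
BATF3: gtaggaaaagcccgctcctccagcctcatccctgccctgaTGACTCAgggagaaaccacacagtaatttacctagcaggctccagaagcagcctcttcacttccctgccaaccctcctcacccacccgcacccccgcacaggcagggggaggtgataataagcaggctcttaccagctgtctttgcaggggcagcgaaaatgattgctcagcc
JUNB: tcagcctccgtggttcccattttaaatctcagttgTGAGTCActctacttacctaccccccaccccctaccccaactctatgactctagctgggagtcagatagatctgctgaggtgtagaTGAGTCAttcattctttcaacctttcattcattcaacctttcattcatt
BCL2L11: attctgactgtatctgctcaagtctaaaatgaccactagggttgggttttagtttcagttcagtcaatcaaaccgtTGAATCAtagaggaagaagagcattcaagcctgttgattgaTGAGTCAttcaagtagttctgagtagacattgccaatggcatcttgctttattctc

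AP1 sites were found in the central 300 bp of 615 of the 1759 regions, 35.0% (32.8–37.2). The shares were 6.31% of the 3187 regions in the NS DMSO list alone, 14.8% of the 3429 in the NS rottlerin list alone and 22.7% of the 7419 in the SW rottlerin list alone. The members exceeded these by 28.7 (26.3–31.1), 20.2 (17.7–22.7) and 12.2 (9.83–14.7) percentage points, and every interval lay above 0. Over every merged region the share was 17.9%, and over the 10841 regions called in every list it was 9.68%.

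**Figure D1:**
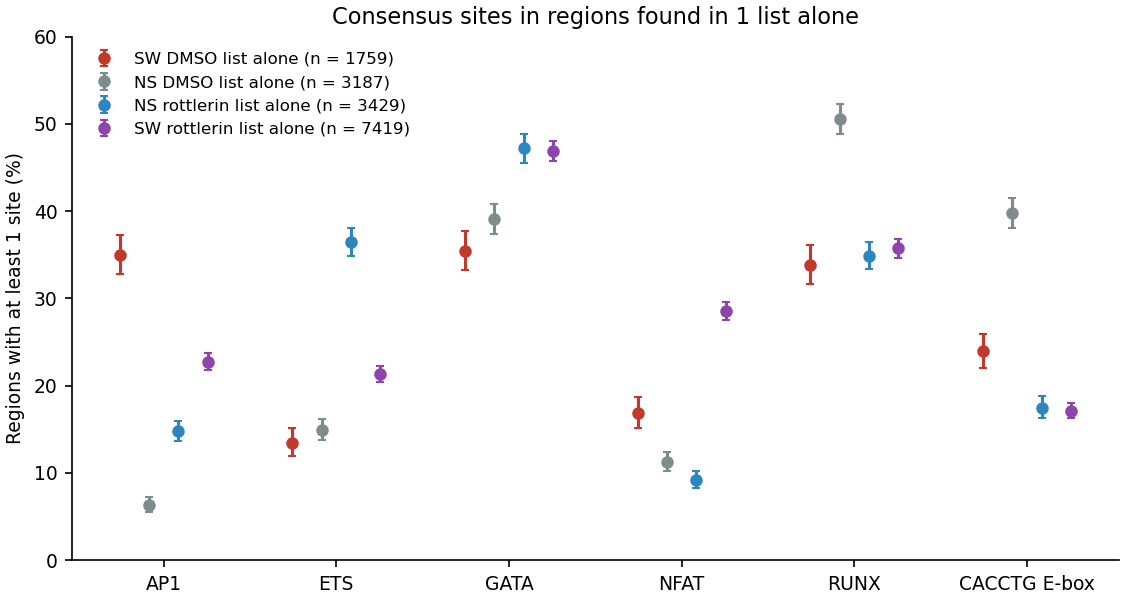
Share of regions with at least 1 consensus site (y axis, %) for 6 families, with 95% Wilson intervals, in the regions found in 1 list alone. For AP1 the SW DMSO list alone stands highest at 35.0%, and for ETS its 13.5% lies beside 14.9% for the NS DMSO list alone.

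Repeated AP1 sites were also more common. Of the members, 465 held 1 site, 127 held 2 and 23 held 3 or more, so that 8.53% (7.31–9.93) had at least 2. In the NS DMSO, NS rottlerin and SW rottlerin list alone, the shares with at least 2 were 0.220%, 1.31% and 2.91%. The canonical forms TGAGTCA and TGACTCA were present in 27.9% (25.8–30) of members, against 2.67%, 9.48% and 17.1% in the same order. The forms TGAATCA and TGATTCA were present in 11.03% of members, and the CREB-type site TGACGTCA in 0.512%. The base just outside the canonical form was counted at both of its ends, read towards the site. Over 1160 ends in members it was A in 38.4% (35.6–41.2) and T in 8.28%. It was A in 17.8% (12.8–24.2) of 174 ends in the NS DMSO list alone and in 35.0% of 2718 ends in the SW rottlerin list alone.

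The sites lay near the middle of the regions. Of 790 AP1 sites in members, 453 (57.3%) were within 50 bp of the mid-point. Per 100 regions there were 14.1 sites in the innermost 25 bp and 2.22 in the outermost 25 bp. In the NS DMSO list alone the numbers were 0.816 and 0.973, which shows no such gathering, and in the SW rottlerin list alone 7.16 and 2.13. Windows of 300 bp placed 1 kb to either side of the members held an AP1 site in 7.79% and 9.95%, and the same windows beside the other 3 groups in 8.00% to 9.79%.

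**Figure D2:**
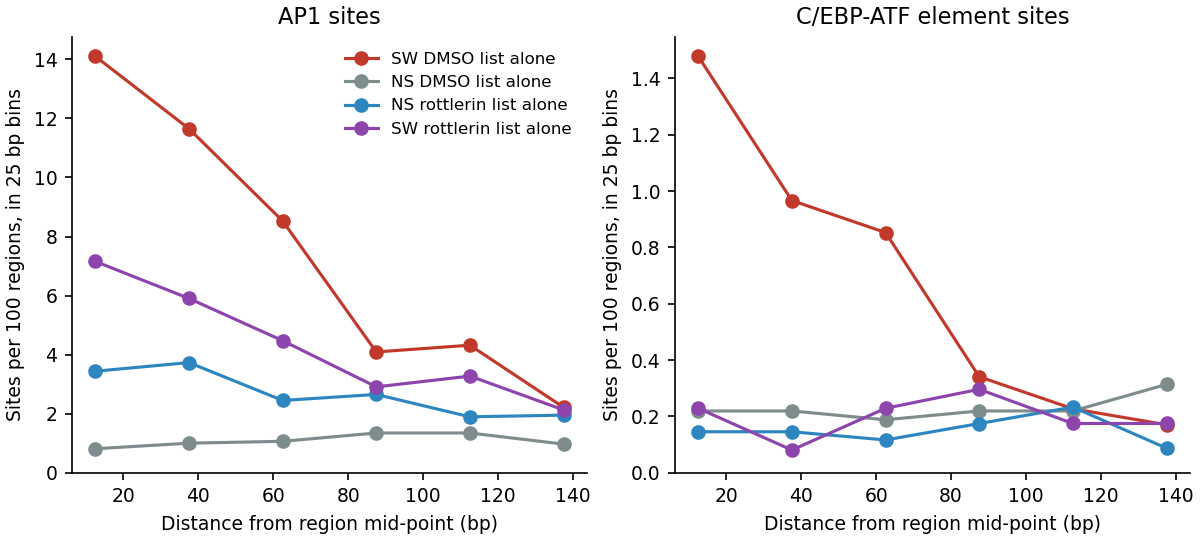
Sites per 100 regions (y axis) in 25 bp bins of distance from the region mid-point (x axis, bp) for the AP1 site (left) and for TGATGCAA, the core of the C/EBP-ATF element (right), in the regions of 1 list alone. In the SW DMSO list alone the innermost and outermost bins hold 14.1 and 2.22 AP1 sites and 1.48 and 0.171 TGATGCAA sites.

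The AP1 share was larger at higher peak scores. The score grows with the significance of a peak over input, and it belongs to the values by which regions were called. The members were split by score into 4 bins of near-equal size. From the lowest to the highest bin, the share was 25.7% (21.8–29.96), 35.5%, 38.5% and 40.2% (35.8–44.9). RUNX sites rose as well, from 26.6% to 38.2%, the CACCTG E-box from 20.7% to 27.7% and ETS sites from 11.4% to 15%. A larger share at higher scores was thus not particular to AP1. GATA sites went the other way, from 43.0% (38.4–47.6) in the lowest bin to 30.5% (26.3–34.9) in the highest. NFAT sites fell from 20.2% to 15.9%. The GATA share was also lower in the highest than in the lowest bin of the NS DMSO (46.3% and 33.1%), NS rottlerin (50.8% and 43.6%) and SW rottlerin list alone (49.2% and 45.1%). In the NS DMSO list alone the AP1 share was 9.03% in the lowest and 4.27% in the highest bin, and in the SW rottlerin list alone it was 23.3% and 22.3%. Members with an AP1 site had a median fold of 3.62 and a median GC content of 43.3%, against 3.49 and 39.8% for those without.

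**Figure D3:**
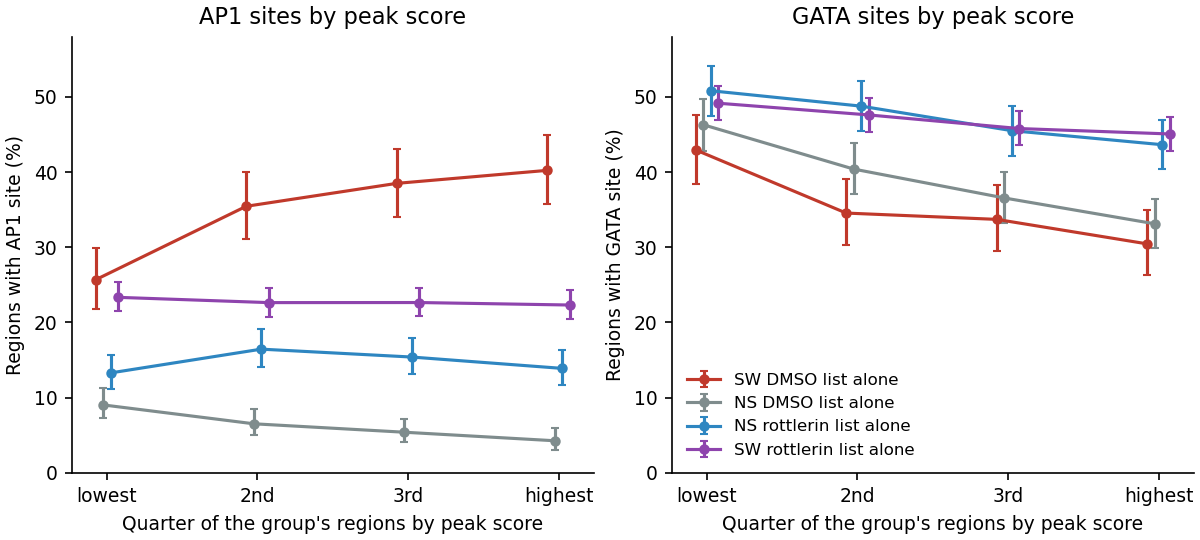
Share of regions with an AP1 (left) or GATA (right) site (y axis, %) in 4 bins of each group by peak score (x axis), with 95% Wilson intervals, for the regions of 1 list alone. In the SW DMSO list alone the lowest and highest bins stand at 25.7% and 40.2% for AP1 and at 43.0% and 30.5% for GATA.

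Other peaks of the same list had AP1 shares as high. Regions with peaks in the SW DMSO and SW rottlerin lists only numbered 2547 and held AP1 sites in 40.7% (38.8–42.6), and regions in every list but NS DMSO numbered 2883 and held them in 36.7% (35.0–38.5). Regions in the SW DMSO and NS rottlerin lists only numbered 311 and held them in 23.5% (19.1–28.5). Where the only other peak was in the NS DMSO list (514 regions) the share was 11.7% (9.18–14.7). A high AP1 share was thus not particular to regions called in the SW DMSO list alone.

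The remaining families were lower than, between or close to the other single-list groups. ETS sites (the words ACCGGAA and also CCGGAAG, with the words AGGAAGT and also ACAGGAAG) were found in 13.5% (12.0–15.2) of members, 36.5% of the NS rottlerin list alone and 21.4% of the SW rottlerin list alone, and in 25.6% of every merged region. The members differed from these groups by -23.0 (-25.2 to -20.7) and -7.89 (-9.68 to -5.98) points. The difference from the NS DMSO list alone, at 14.9%, was -1.46 points with an interval of -3.45 to 0.596. GATA sites (the words AGATAA and also TGATAA, with the word AGATAG) were found in 35.4% of members, against 39.1%, 47.2% and 46.9% in the NS DMSO, NS rottlerin and SW rottlerin list alone and 37.8% of every merged region. The difference of -3.68 points from the NS DMSO list alone had an interval that reached 0 under 3 alternatives, such as -0.585 points in the central 500 bp. NFAT sites (TGGAAAA or ATGGAAA) were found in 16.8% (15.2–18.7) of members and 15.4% of every merged region, with differences of -11.8 (-13.7 to -9.68) points from the SW rottlerin list alone and 7.64 (5.68–9.68) from the NS rottlerin list alone. RUNX sites (TGTGGT or TGCGGT) were found in 33.9% of members and 37.9% of every merged region. The difference was -16.7 (-19.5 to -13.9) points from the NS DMSO list alone, which stood at 50.6%. From the NS rottlerin and SW rottlerin list alone it was -1.025 (-3.73 to 1.72) and -1.85 (-4.29 to 0.643) points. The CACCTG E-box was found in 23.9% of members and 21.4% of every merged region, between 39.8% in the NS DMSO list alone and 17.5% and 17.1% in the rottlerin lists alone. In windows of 300 bp placed 1 kb to either side of the members, ETS sites were found in 8.81% and 9.89%. GATA sites were found there in 38.2% and 40.7%, and NFAT sites in 14.3% and 15.6%. Both strands were searched, ETS and NFAT patterns can share their GGAA, and a match describes the sequence and is not a bound site.

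Further sequences stood out when every 8-base word in the members was compared with the other single-list groups, and those described were chosen after their values were seen. Of the 30 words with the largest excess among 31424, 13 held 6 bases of the AP1 site. The highest-ranked word without them was TGATGAAA, present in 5.34% of members against 2.29%, 2.42% and 2.44% in the NS DMSO, NS rottlerin and SW rottlerin list alone. TGATGCAA, at rank 9 and the core of the composite element bound by C/EBP and ATF factors, was not among those 13 either. It was present in 68 members, 3.87% (3.06–4.87), against 1.35%, 0.904% and 1.17% in the NS DMSO, NS rottlerin and SW rottlerin list alone and 1.25% of every merged region. The excess was 2.52 (1.59–3.58), 2.96 (2.07–4.00) and 2.69 (1.84–3.72) points. Words were ranked by their excess over the highest of these groups, and the intervals do not allow for the choice among 31424 words. Of the 71 TGATGCAA sites, 43 (60.6%) lay within 50 bp of the mid-point, against 31.8%, 32.3% and 26.1% in the same 3 groups. In windows 1 kb to either side of the members the share was 1.02% and 1.08%. Among regions in the SW DMSO and SW rottlerin lists only it was 1.81% (1.36–2.40), among those in the SW DMSO and NS rottlerin lists only 2.89% (1.53–5.41), and among those in the SW DMSO and NS DMSO lists only it was 2.53% (1.48–4.28).

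Peaks at HSPA5 and TXK are shown for this element, with AP1 and TGATGCAA sites on either strand in capitals, and were chosen after their values were seen. HSPA5 encodes the main chaperone of the endoplasmic reticulum. Its region, chr9:128005587-128005874, is intronic and lies 2.07 kb before the TSS, with the divergent HSPA5-DT transcript starting nearest. It had a fold of 4.62 and a score of 64 and held 2 TGATGCAA and 2 AP1 sites. TXK encodes a TEC-family kinase of T cells, and its region, chr4:48066506-48066683, is intergenic, 15.6 kb after an annotated TSS, with a fold of 4.395 and 1 TGATGCAA site.
HSPA5: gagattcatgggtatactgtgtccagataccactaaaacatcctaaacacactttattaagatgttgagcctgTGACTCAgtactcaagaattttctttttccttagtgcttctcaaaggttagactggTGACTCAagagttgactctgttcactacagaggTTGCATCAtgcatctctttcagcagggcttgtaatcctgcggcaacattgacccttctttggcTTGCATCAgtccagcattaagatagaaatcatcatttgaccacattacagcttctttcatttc
TXK: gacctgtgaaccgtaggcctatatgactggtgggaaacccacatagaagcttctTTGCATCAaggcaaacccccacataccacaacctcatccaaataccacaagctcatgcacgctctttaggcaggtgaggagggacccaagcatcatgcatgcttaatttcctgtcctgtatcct

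The other regions with TGATGCAA of high fold lay near ANKRD7 (fold 5.89), TSN (fold 4.815), TAGAP (fold 4.51), ACTA2 (fold 4.48), HAPSTR1 (fold 4.28), ANAPC1 (fold 4.26), SUCLG1 (fold 4.24) and NFE2L1 (fold 4.21), each the gene of the nearest coding TSS. The distances ran from 43 bp at NFE2L1, which encodes a stress-responsive transcription factor of proteasome genes, to 1621 kb at SUCLG1. Of the 68 regions, 26 also held an AP1 site and 4 lay within 1 kb of a coding TSS.

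The regions were mostly distal. The median distance of their mid-points to the nearest TSS was 7452 bp, with quartiles of 2412 and 20613 bp, and to the nearest coding TSS 23930 bp. Introns held 1140 regions (64.8%), intergenic sequence 312 (17.7%), sequence 1 to 10 kb upstream of a TSS 128 (7.28%), exons 72, 3′UTRs 41, promoters 40 (2.27%) and 5′UTRs 26. The promoter share was 9.27% when promoters took precedence over other features and 6.50% when only peaks in the upper 50% of scores per list were used. Introns and intergenic sequence together held 82.55% (80.7–84.25), with differences of 3.40 (1.13–5.60) points from the NS rottlerin list alone and 4.03 (1.97–5.98) from the SW rottlerin list alone. The difference from the NS DMSO list alone was 1.75 points with an interval of -0.524 to 3.96. CpG-island-like sequence, over 50% GC with an observed to expected CpG ratio over 0.6, was found in 4.04% (3.21–5.06) of members, against 3.51%, 6.07% and 10.1% in the NS DMSO, NS rottlerin and SW rottlerin list alone. It was 11.02% when only peaks in the upper 50% of scores per list were used and 7.465% without the SW rottlerin list. The median GC content was 41%, beside 43.3% to 44% in the other single-list groups. AP1 sites were present in 44.5% (36.2–53.2) of upstream, 38.8% of intergenic, 34.3% of intronic and 22.5% (12.3–37.5) of promoter members.

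The fold over total input belongs to the values that selected the regions and is given as a description. The members had a median fold of 3.55 (quartiles 3.22 and 3.97, range 2.36 to 6.68), a median score of 29 and a median width of 203 bp. In the SW DMSO list, regions with a peak in 1, 2 or 3 further lists had median folds of 3.70, 3.85 and 4.38. The median gap to the nearest peak of any other list was 14518 bp, and 118 members (6.71%) had one within 1 kb. Just inside the rule, the closest other peak was 1 bp away and 11 members had a gap under 50 bp. Just outside it, the smallest overlap was 0 bp, where peaks touch, and 16 SW DMSO peaks overlapped another by under 50 bp.

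The 20 members of highest fold ranged from 5.29 to 6.68. Of these, 15 lay in introns, 11 lay over 10 kb from a coding TSS and 10 held an AP1 site. Of all members, 64.8% lay in introns and 35.0% held an AP1 site, and the median distance to a coding TSS was 23930 bp. The highest, with a score of 142, lay in an intron on chromosome 3 from 43546836 to 43547185, 49.9 kb after a TSS of ANO10, which encodes a membrane protein of the anoctamin family. It held none of the AP1, ETS, RUNX, GATA or NFAT sites. A region in a 5′UTR of ZNF821, a zinc finger gene, on chromosome 16 from 71918386 to 71918629, followed with a fold of 6.40. The RUNX1 region printed above had a fold of 6.33 and a score of 97, with 2 AP1 sites, a GATA site and the CACCTG E-box. NEMF, a ribosome quality control factor, was nearest to a region of fold 6.30 at 11.4 kb, and PGA3, a pepsinogen gene, to one of 6.145 at 15.8 kb. The CNTN3 region had a fold of 6.04 and 3 AP1 sites, at 175 kb.

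The others of the 20 included regions nearest to ANKRD7, MBD2, ZNF541, ADGRF3, ACTR3, JSRP1, EVI2A, ACOXL, RPTOR, APOBEC3B, FBXW8 and a coding gene without a symbol. MBD2 binds methylated DNA, RPTOR is a subunit of mTORC1, and APOBEC3B is a cytidine deaminase. AP1 sites were present at MBD2 (fold 5.74, 42.6 kb after the TSS), ZNF541 (fold 5.69), ADGRF3 (fold 5.64), ACTR3 (fold 5.64), EVI2A (fold 5.39), APOBEC3B (fold 5.335) and FBXW8 (fold 5.31).

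Regions at a coding TSS were few. Within 1 kb of one lay 119 members (6.77%, 5.68–8.04), against 6.46%, 8.87% and 12.8% in the NS DMSO, NS rottlerin and SW rottlerin list alone. Of the 119, 20 (16.8%) held an AP1 site and 21 (17.65%) an ETS site, and their median GC content was 56.7%. The 15 of highest fold ran from 6.40 at ZNF821 to 4.19 at TTR, the thyroxine carrier transthyretin. LCLAT1, a lipid acyltransferase, had a region of fold 4.965 centred 12 bp before the TSS (chromosome 2, 30669982 to 30670177). It held an ETS site and no AP1 site. AP1 sites were present at EPDR1 (fold 4.42), DTNA (fold 4.40), STX11 (fold 4.29) and GBP3 (fold 4.29), an interferon-inducible GTPase. Others of the 15 lay at BEST1, ZMYM3, LONRF3, SRPK2, CHRNA3, NFE2L1 and GPD1.

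Most genes near a member had only 1. Of 19794 protein-coding genes, 1988 (10.0%) had a member within 50 kb of a TSS, of which 1818 had 1 member, 157 had 2, 11 had 3, 1 had 4 and 1 had 5. The gene with 5 was TRIB3, a pseudokinase of the Tribbles family known as a target of ATF4. Its members lay 38.9, 26.1 and 7.84 kb before the canonical TSS, across the TSS, and 21.3 kb after it, on chromosome 20 between 322374 and 382928. Their folds were 3.99, 3.78, 3.245, 2.89 and 3.12. The member across the TSS was 1437 bp wide, the first and the last held AP1 sites, and none held TGATGCAA in its central 300 bp. Of the 10 merged regions within 50 kb of a TRIB3 TSS, 2 had an NS DMSO peak, at 55.4 and 53.4 kb before the canonical TSS.

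**Figure D4:**
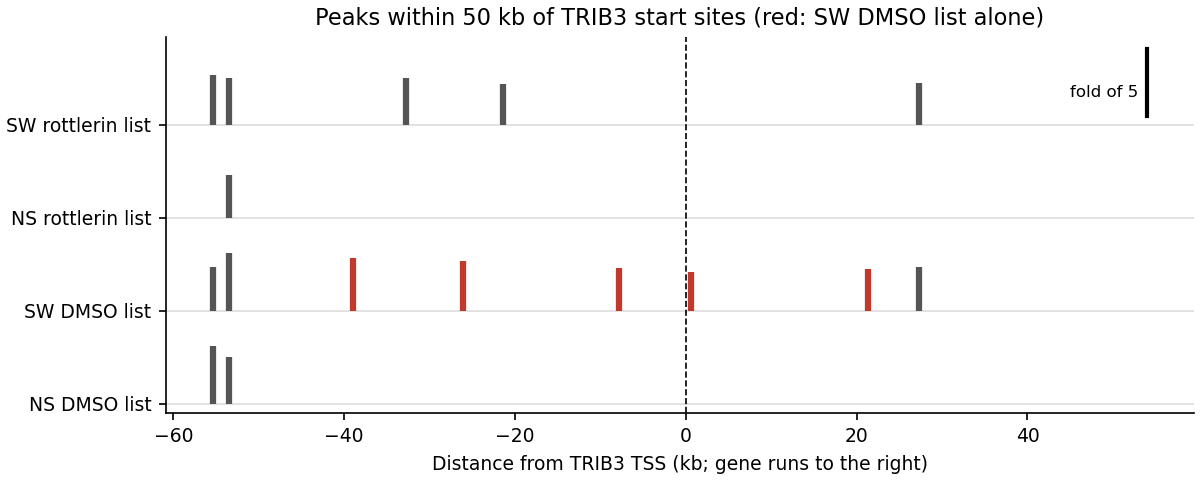
Peaks within 50 kb of any TRIB3 TSS, by list, at their distance from the canonical TSS (x axis, kb), with the height giving the fold over input. The 5 members (red, SW DMSO list alone) have folds of 2.89 to 3.99, and no other list has a peak at the TSS itself.

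NRSN2 had 4 members and SOX12 had 3 within 50 kb, and all of these are members counted at TRIB3. ANO10 had 3 intronic members with folds of 6.68, 4.96 and 3.92, of which none held an AP1 site. CACNA1C, a calcium channel gene, had 3 with folds of 3.93, 3.14 and 4.81, the last in a 3′UTR with 3 AP1 sites. EPHA2, an ephrin receptor gene, had 3 intergenic members with folds of 4.425, 4.67 and 2.72, and none of the 8 merged regions near it had an NS DMSO peak. PRKACB (folds 3.28 to 4.02), SPTLC3 (folds 3.43 to 3.865), MBNL1 (folds 3.36 to 4.02) and CYCS (folds 3.37 to 3.70) had 3 each. They encode a catalytic subunit of protein kinase A, a sphingolipid enzyme, a splicing regulator and cytochrome c.

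Of 144 genes in 7 T cell lists, 26 (18.1%, 12.6–25.1) had a member within 50 kb, beside 10.0% of all coding genes. The same genes were also near the other groups more often than coding genes at large. They stood at 28.5% for the NS DMSO list alone (16.7% of all coding genes), 37.5% for the NS rottlerin list alone (18.65%) and 68.75% for the SW rottlerin list alone (35.2%). The larger share was thus not particular to the SW DMSO list alone.

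**Figure D5:**
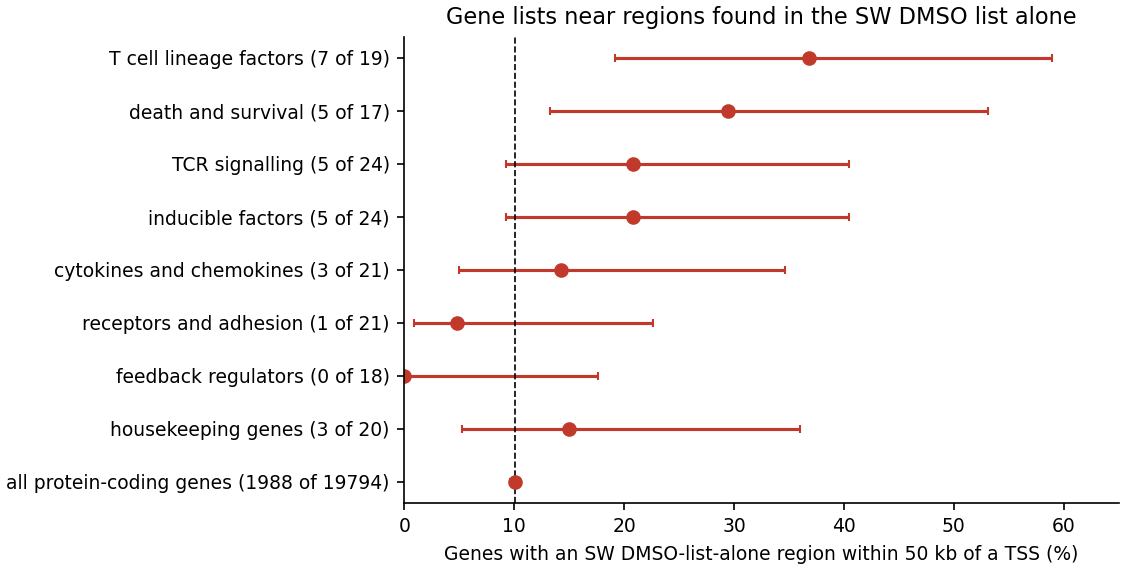
Share of genes with a member within 50 kb of a TSS (x axis, %) in 7 T cell lists, in housekeeping genes and in all protein-coding genes, with 95% Wilson intervals; the dashed line is the share of all coding genes, 10.0%. T cell lineage factors stand at 7 of 19 and feedback regulators at 0 of 18.

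Lineage factors had 7 of 19 genes near a member (36.8%, 19.15–59.0), namely GATA3, RUNX1, MYB, ETS1, TCF12, SATB1 and BACH2. The same 19 genes stood at 42.1% for the NS DMSO, 36.8% for the NS rottlerin and 73.7% for the SW rottlerin list alone. TCF12, an E protein, had an intronic member of fold 3.62 at 5.14 kb after a TSS. ETS1 had one of fold 3.45 with an AP1 site at 35.1 kb after, RUNX1 one of 3.35 at 2.71 kb before, and GATA3, the Th2 lineage factor, one of 3.196 at 44.8 kb after. The MYB region had a fold of 3.07.

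Genes of death and survival had 5 of 17 near a member (29.4%, 13.3–53.1), against 41.2%, 41.2% and 64.7% for the NS DMSO, NS rottlerin and SW rottlerin list alone. BIRC3, an inhibitor of apoptosis, had a member of fold 4.13 at 44.7 kb before a TSS, and BCL2L11 had one of 3.87 with 2 AP1 sites at 18.4 kb before. TRAF1, a signalling adaptor, had one of fold 3.34 at 8.83 kb after. BCL2A1, an anti-apoptotic protein of the BCL2 family, had one of 3.32 with an AP1 site at 39.8 kb before. TNFRSF4 (OX40) was the fifth.

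T cell receptor signalling had 5 of 24 near a member (20.8%, 9.245–40.5), against 37.5%, 37.5% and 62.5% for the NS DMSO, NS rottlerin and SW rottlerin list alone. LAT, a membrane adaptor of the receptor, had a member of fold 4.07 and score 58 with 2 AP1 sites, 4.64 kb after the TSS. UBASH3A (fold 3.43), PTPRC, which encodes CD45 (fold 3.40), and THEMIS (folds 3.37 and 2.97) had members without an AP1 site, and CD247 was the fifth.

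Inducible factors also had 5 of 24 (20.8%), beside 10.0% of all coding genes. The same 24 genes stood at 8.33% for the NS DMSO, 20.8% for the NS rottlerin and 70.8% for the SW rottlerin list alone. An AP1 site was in the member at 4 of these 5 genes, beside 35.0% of all members, and 5 regions are too few to describe inducible genes. NR4A3, an orphan nuclear receptor, had a member of fold 4.04 centred 116 bp after a TSS, on chromosome 9 from 102589032 to 102589217. BATF3 followed with a fold of 3.604 at 28 kb after, JUNB with 3.36 at 45.9 kb after and NFKB1 with 3.32 at 32.3 kb after. FOSL2 had a member without the site.

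Cytokines and chemokines had 3 of 21 near a member (14.3%, 4.98–34.6), beside 10.0% of all coding genes. The same 21 genes stood at 9.52% for the NS DMSO, 47.6% for the NS rottlerin and 66.7% for the SW rottlerin list alone. All coding genes stood at 16.7%, 18.65% and 35.2% for these lists. IL5 had a member of fold 4.91 and score 54 in an intron, on chromosome 5 from 131897379 to 131897570. It lay 4.95 kb before an annotated IL5 TSS, with a TSS of RAD50 nearer. IL22 had a member of fold 3.1 with an AP1 site 5.96 kb before the TSS, and XCL2 one of 2.97. Among receptors and adhesion molecules CD69, the early activation antigen, was the 1 of 21 (4.76%) with members, of fold 3.91 and 3.58. For the other lists alone, in the same order, these 21 genes stood at 42.9%, 47.6% and 71.4%. None of 18 feedback regulators was near a member (Wilson upper bound 17.6%), against 22.2%, 33.3% and 72.2% for the other lists alone. Housekeeping genes had 3 of 20 (15%), among them YWHAZ and TFRC.

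Of a list of 15 genes taken from those the study names, 3 (20%, 7.05–45.2) had a member within 50 kb, beside 10.0% of all coding genes. The same 15 genes stood at 13.3% for the NS DMSO list alone (16.7% of all coding genes). They stood at 40% for the NS rottlerin list alone (18.65%) and 66.7% for the SW rottlerin list alone (35.2%). A share above that of all coding genes was thus not particular to the members. The list does not hold every gene the study names, and TRIB3, BACH2 and ETS1, which it names too, had members as given above. MIR155HG, the host of miR-155, had an intronic one with an AP1 site (fold 3.82, 7.27 kb after the TSS). Another at 45.5 kb (fold 2.78) lay in a promoter, with a TSS of MRPL39 the nearest. These were among 7 merged regions of which 6 had an SW DMSO peak. BCL2A1 had a member among 5 merged regions and BIRC3 among 10. CXCR5, PLCG2, DOCK2, CSF1, BCL3, TNFSF10, DUSP10, PRDM8, LTA, BCL6, IL2 and NFATC1 had none. NFATC1 had 4 merged regions in this window, none with an SW DMSO peak. The paper reports several small peaks before the NFATC1 TSS in its SW FAIRE-seq. It also reports an increase in SW cells by qPCR at a region with enhancer marks. Whether those places lie in this window was not tested, and the list names are not used for cell states.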

How the data were processed

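FAIRE-seq of Jurkat cells comprised 9 samples, and the peak lists of 4 of them were used. The other 5 were not analysed here. In the paper's methods, adapters were stripped by the authors using CutAdapt, alignment to Hg19 used Bowtie2, Picard took out duplicates, and MACS2 in Broad mode was run on the DMSO samples against total input. How lists labelled rottlerin were called is not given in the sources used here. A deposited score was read for every peak. A deposited fold enrichment (ratio) over input and deposited −log10 p-values and −log10 q-values were also present. None was rescaled, and all peaks were kept.

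Members and gene lists were chosen with earlier results of these data known. Overlapping or touching peaks were merged, and of 40731 merged regions 28 on other contigs than the autosomes, X and Y were dropped. Mid-points were placed with GENCODE release 44 on GRCh37, giving UTRs precedence, then exons and introns, then promoters (1 kb before a TSS), upstream sequence (to 10 kb) and intergenic sequence. Consensus sites of 12 families were sought on both strands of the central 300 bp. A gene counted as near within 50 kb of a TSS. Unless the canonical TSS is named, distances run to the nearest annotated TSS of the gene, which need not be its main one.

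Genes named are the nearest coding gene of the 20 members of highest fold, the 10 genes with most members, the 15 members of highest fold within 1 kb of a coding TSS, up to 4 examples a list by fold, and 15 of the genes that the study names. Outside this rule are TGATGCAA with its regions, and list genes named to complete a count. Some genes that the rule selects are not reported here. Alternatives covered score limits, the lists used, window sizes, placement and GC content. The steps were tested on simulated data. Versions were matplotlib 3.10.9, samtools 1.23.1, Python 3.11.15, pysam 0.24.0, numpy 2.4.6, scipy 1.17.1 and pandas 2.3.3.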

Additional observations from a re-analysis of the deposited data

How the results depend on the processing

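The excess of AP1 sites over each other single-list group kept its direction, with an interval above 0, in all 36 alternative values, between 26.45 and 35.98 points over the NS DMSO list alone, 16.61 and 28.96 over the NS rottlerin list alone and 8.24 and 19.5 over the SW rottlerin list alone. The excess of TGATGCAA did so too, with a lowest value of 1.43 points. This word was picked for its excess over these groups, so its direction was set by the choice and the alternatives do not test it. The alternatives of both sites include regions restricted to scores of 20 to 40 and to 38 to 46% GC. The GC restriction and the tests of AP1 and TGATGCAA differences were added after seeing the data. The ETS difference from the NS DMSO list alone turned to 1.39 points (-0.215 to 2.98) when the SW rottlerin list was not used, and was -3.14 points (-5.08 to -1.14) when the NS rottlerin list was not used.

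With the higher-scoring 50% of each list there were 708 members, of which 73.9% lay in introns or intergenic sequence and 6.50% in promoters, with a median distance of 5.06 kb, 46% GC, 11.02% CpG-island-like sequence, and AP1, ETS, GATA and NFAT sites in 43.1%, 18.2%, 32.1% and 12.3%. With the same number of peaks in each list (18977), the values that moved were 80.05% in introns or intergenic sequence, 3.14% in promoters, 43.7% GC, 7.085% CpG-island-like, 39.7% with AP1 and 16.4% with ETS sites. Without the NS DMSO list the AP1 share was 29.8%, and without the NS rottlerin list the CpG-island-like share was 5.21% and the ETS share 15.6%. Without the SW rottlerin list there were 4340 members, 79.8% in introns or intergenic sequence and 3.50% in promoters, with 44% GC, 7.465% CpG-island-like sequence and AP1, ETS and NFAT sites in 39.5%, 16.9% and 21.4%. The higher-scoring 50% of members (879) had 79.75% in introns or intergenic sequence, 3.64% in promoters, 43.7% GC, 5.35% CpG-island-like sequence, and AP1 and GATA sites in 39.5% and 32.1%. With promoters placed first, 77.7% lay in introns or intergenic sequence and 9.27% in promoters. The median distance to a coding TSS was 23.9 kb. In the central 500 bp the GC content was 40.4% and AP1, ETS, GATA and NFAT sites were found in 39.97%, 19.5%, 54.6% and 26.7%. At 38 to 46% GC, AP1 sites were found in 41.9% of members. Of the T cell list genes, 6.94% had a member within 10 kb and 28.5% within 100 kb, beside 3.097% and 17.5% of all coding genes. The cause of these changes was not tested. Of the other 110 alternative values of these results, the 36 AP1 differences kept their direction and side of 0, the 7 numbers of members stayed within 1.5 times (1641 to 2611), and the rest lay inside the 95% interval of the reported value.

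The share of repeat sequence was not run, since the reference used marks no repeats. No paired analysis was possible because each list holds 1 library. Depth is not given by peak lists, so absence from a list is bounded only by that library's peak calls.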

Other observations

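The members were spread over all chromosomes. They were 6.07% (4.87–7.54) of the merged regions on chromosome 13 and 5.70% (4.76–6.81) on chromosome 7, and 2.50% (1.82–3.43) on chromosome 19 and 2.78% (1.86–4.13) on X, beside 4.32% over all chromosomes. Of the members with an AP1 site, 29.3% (25.8–33.0) also held the CACCTG E-box, against 21.1% (18.8–23.5) of those without. The share with a RUNX site was 35.3% and 33.1%, and that with an NFAT site 15.4% and 17.6%. No site of the AP1, ETS, RUNX, GATA, NFAT, NFkB or EGR families was found in 320 members (18.2%, 16.5–20.1).

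A list of 30 genes of amino acid supply and endoplasmic reticulum stress, many of them known targets of ATF4, was written after TGATGCAA had been seen. Of these, 2 had a member within 50 kb, TRIB3 and HSPA5, or 6.67% (1.85–21.3), beside 10.0% of all coding genes. Of the same 30 genes, 7 (23.3%) were near a region of the NS DMSO list alone, beside 16.7% of all coding genes. The NS rottlerin list alone had 6 near (20%, beside 18.65%) and the SW rottlerin list alone 12 (40%, beside 35.2%).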
